A study of Mus musculus with 20 samples.

Results

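The genes described here encode the amino acid transporters of the solute carrier (Slc) families Slc1a, Slc3a, Slc6a, Slc7a, Slc36a, Slc38a and Slc43a. They were found by gene name on 1-colour Agilent mouse microarrays: the name pattern matched 67 of the 25034 genes on the array, and 63 of these are transporters. The other 4 (Slc7a6os, Slc36a1os, Slc36a3os and Slc6a19os) are transcripts from the opposite strand and were kept apart. Testing required a probe whose signal the scanner software marked as well above background on 6 or more of 12 arrays in the first comparison, or 4 or more of 8 in the second, which left 48 and 50 of the 63.

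The series holds 20 arrays of intestinal tissue from C57BL6/j mice, 1 array per mouse. In the first experiment, per the study's methods, 6 Cre control mice (VillinCreER/0) and 6 BRAFV600E mice (VillinCreER/0 with 1 BrafV600E-LSL allele) aged 8 to 12 weeks were injected with tamoxifen on 3 days in a row (2 mg each time) and killed 3 days after the last injection. In the second, 4 MEKi mice were given the MEK inhibitor PD184352 and 4 Vehicle mice its carrier, each in 3 injections after 2 of tamoxifen. The labels leave out the genotype of these 8 mice, and the study's legends describe them as carrying the induced mutant allele. The control mice of the first experiment carry the Cre and received tamoxifen too. The Villin promoter drives the Cre in the gut epithelium, whereas the RNA came from whole tissue, so a lower level of a transcript may reflect fewer cells of a type or less RNA per cell, which cannot be told apart here. The intestinal segment is not given in the sources used here.

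Dietary protein reaches the enterocyte as amino acids and short peptides. Carriers in the brush border take amino acids up with sodium, protons or by exchange, and a second set in the basolateral membrane passes them to the blood. Several carriers are pairs: a heavy subunit of the Slc3a family brings a light subunit of the Slc7a family to the membrane and is linked to it by a disulfide bond. Slc36a1 and Slc38a9 also sit in the lysosomal membrane, where amino acid supply is read by mTORC1, and Slc38a9 takes part in sensing arginine.

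The results turn most on Slc36a1, the proton-coupled carrier of small neutral amino acids, with Slc1a1 and Slc3a1 as the called members with the next lowest and the highest log2 fold change in the first comparison. Their promoter sequences are printed as the regions from 250 bases before to 30 bases after the annotated start, taken from RefSeq (GRCm38.p6), 5′ to 3′ on the strand of the gene. Capitals mark CACGTG, the E-box, searched along with TGATGNAA, the C/EBP-ATF composite element, on both strands of the whole 300-base windows.
Slc36a1 (chr11:55204090-55204369, plus strand): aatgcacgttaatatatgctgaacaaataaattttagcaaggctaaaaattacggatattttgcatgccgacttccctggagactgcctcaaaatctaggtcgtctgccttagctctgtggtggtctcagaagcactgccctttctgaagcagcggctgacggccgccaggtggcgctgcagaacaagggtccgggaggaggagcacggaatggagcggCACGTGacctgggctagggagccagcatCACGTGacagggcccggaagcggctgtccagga
Slc1a1 (chr19:28834885-28835164, plus strand): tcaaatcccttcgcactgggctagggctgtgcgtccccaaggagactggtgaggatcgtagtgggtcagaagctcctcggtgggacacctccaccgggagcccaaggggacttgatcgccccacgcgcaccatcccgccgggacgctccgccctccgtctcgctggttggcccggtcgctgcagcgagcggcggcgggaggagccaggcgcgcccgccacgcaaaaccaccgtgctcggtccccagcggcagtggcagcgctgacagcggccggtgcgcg
Slc3a1 (chr17:85028097-85028376, plus strand): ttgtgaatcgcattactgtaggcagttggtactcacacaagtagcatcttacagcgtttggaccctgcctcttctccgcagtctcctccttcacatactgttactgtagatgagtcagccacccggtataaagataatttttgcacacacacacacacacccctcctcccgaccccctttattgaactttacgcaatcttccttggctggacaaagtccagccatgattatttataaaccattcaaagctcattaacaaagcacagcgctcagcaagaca
The Slc36a1 window held 2 E-boxes, beginning at -31 and -3 counted in bases from the start, and the windows of Slc1a1 and Slc3a1 held neither motif. The Slc1a1 stretch was the richest in G and C of the 3, at 70.4% over the 250 bases before the start against 53.2% in Slc36a1, 45.6% in Slc3a1 and a median of 52.4% over all windows.

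Of the 63 transporters, 45 had promoter entries in the table, in 66 windows, and all 27025 genes had 32851 windows. A gene counted if any of its windows held the motif. The members had more windows per gene, and the shares below are not corrected for this. An E-box was found in 9 of these 45 (20%), against 8.09% of all 27025 genes in the table: Slc1a6, Slc1a7, Slc36a1, Slc38a5, Slc38a7, Slc43a1, Slc6a16, Slc6a3 and Slc7a14. The composite element was found in 4 of 45 (8.89%), against 4.51% of all genes: Slc1a4, Slc6a21, Slc7a11 and Slc7a7. Among the members called in either comparison that had an entry, Slc36a1 was thus the one with a match. These are matches of letters and were not tested against the expression values.

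The arrays had between 60.8% and 76.8% of spots well above background, 0 saturated spots, and no 2 arrays with identical values. The scanner software also fits a slope to spike-in controls. On Cre control replicates 2, 3 and 5 this slope was out of range, at 0.77, 0.84 and 0.76. It was 0, also out of range, on BRAFV600E replicates 3 to 6, and in range on the other arrays. All 6 Cre control arrays and the BRAFV600E replicates 1 and 2 lay on slide 1, the BRAFV600E replicates 3 to 6 on slide 2, and the second experiment on slide 3. Levels are log2 of the processed signal relative to the 75th percentile of the array, and are compared between arrays but never between genes. Epithelial markers (Vil1, Cdx1, Cdx2, Epcam, Krt20 and Lgals4) were well expressed on every array, with a mean log2 level between 5.61 and 6.53. Vehicle replicate 2 stood apart: markers of the exocrine pancreas had a mean log2 level of 6.78 there, against -3.54 to -3.33 on the other 3 Vehicle arrays and -3.84 to -3.05 on the MEKi arrays. Y-linked transcripts were high on 3 of 6 Cre control, 4 of 6 BRAFV600E, 4 of 4 MEKi and 2 of 4 Vehicle arrays. The study's methods give equal numbers of males and females in the groups of 6, which the BRAFV600E arrays do not match. The reason was not tested.

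The first comparison asked what expression of the mutant kinase for a few days did to the transporter transcripts. In BRAFV600E tissue, 6 transporters fell and 1 rose at an adjusted p under 0.05 (limma, Benjamini-Hochberg over all 19041 genes tested). The 6 that fell were Slc36a1, Slc1a1, Slc6a13, Slc38a11, Slc6a7 and Slc38a9, and Slc3a1 rose. The Slc38a9 call rests on 1 of its 2 probes, and the other differed by 0.72. The 7 of 48 (14.6%) stood beside 12.5% of all genes tested, while the 6 lower (12.5%) stood beside 6.27% and the 1 higher (2.08%) beside 6.19%. Groups did not overlap in 4 members (8.33%, beside 7.36% of all genes), 1 higher (beside 4.19%) and 3 lower (6.25%, beside 3.17%). An unadjusted p under 0.05 was found for 13 members (27.1%, beside 30.1%), and a log2 fold change above 0 for 16 (33.3%, beside 48.4%). The median log2 fold change was -0.12 over the 48 members and -0.02 over all genes. Of the 24 members with several passing probes, 9 had probes of both signs. With the mean over all passing probes of a gene, 7 members were called again, 4 of them the same: Slc6a8 was then called higher, and Slc6a20b and Slc7a8 lower.

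**Figure D1:**
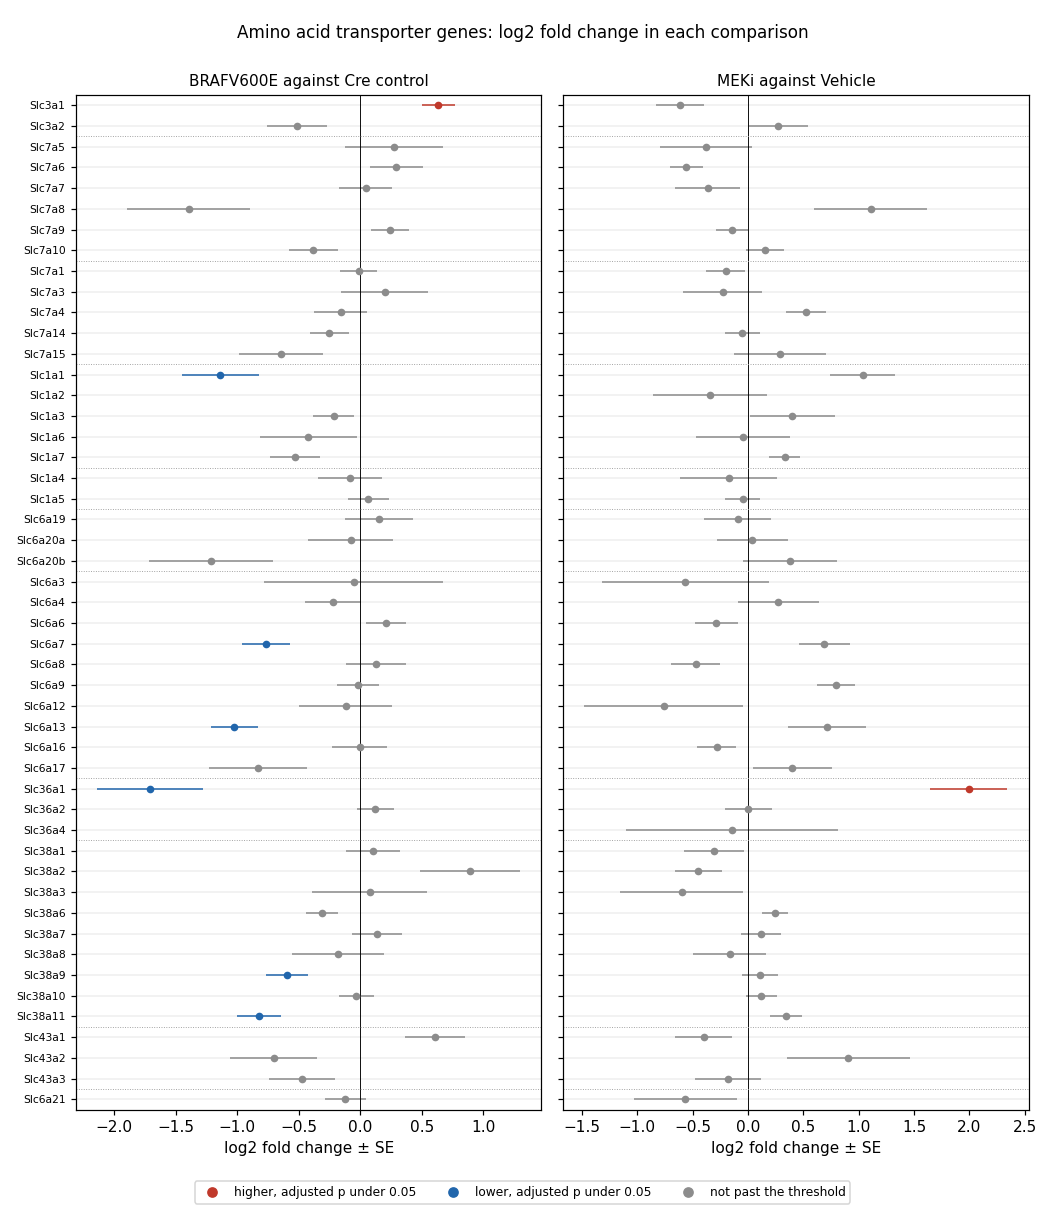
Log2 fold change ± SE (x axis) of the transporters tested, with 1 left out (y axis, by role group, dotted lines between groups) for BRAFV600E against Cre control on the left and MEKi against Vehicle on the right. Red and blue points passed an adjusted p under 0.05: 6 lower and 1 higher on the left, and Slc36a1 alone, higher, on the right. Slc1a2 and Slc36a4 were tested in the second comparison only.

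Slc36a1 had the largest change of the 7. On the Cre control arrays its log2 level ran from 0.72 over a median of 1.89 to 2.03, and on the BRAFV600E arrays from -1.52 over 0.25 to 1.01. The groups overlapped through Cre control replicate 3, the one control array that did not exceed every BRAFV600E array. The transcript fell by 1.71 on the log2 scale (SE 0.43, adjusted p = 0.023), or 3.27-fold. The fall differed between the slides: BRAFV600E replicates 1 and 2 lay at -0.92 and -1.52, and the 4 arrays of slide 2 at 1.01, 0.93, -0.09 and 0.58.

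With slide as a block the Slc36a1 difference was -2.93 (SE 0.37, adjusted p = 0.0011), and without the 2 BRAFV600E arrays of slide 1, a choice made after seeing the data, it was -1.10 (adjusted p = 0.051). A second probe for the gene, dimmer and 3430 bases away, moved little (-0.07). Both probes are 60 bases long and named through RefSeq accessions, and the 30 bases at the 5′ end of each are shown because they did not move together. Positions are those of the files on mm9.
Slc36a1, probe reported (chr11:55049533-55049592): atcgtaaagctgtcagtatatgttgaaatc
Slc36a1, second probe (chr11:55046103-55046162): gcgactcctctaccaattccaccagtgcct
Whether either probe lies in an exon or a UTR was not analysed here.

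**Figure D2:**
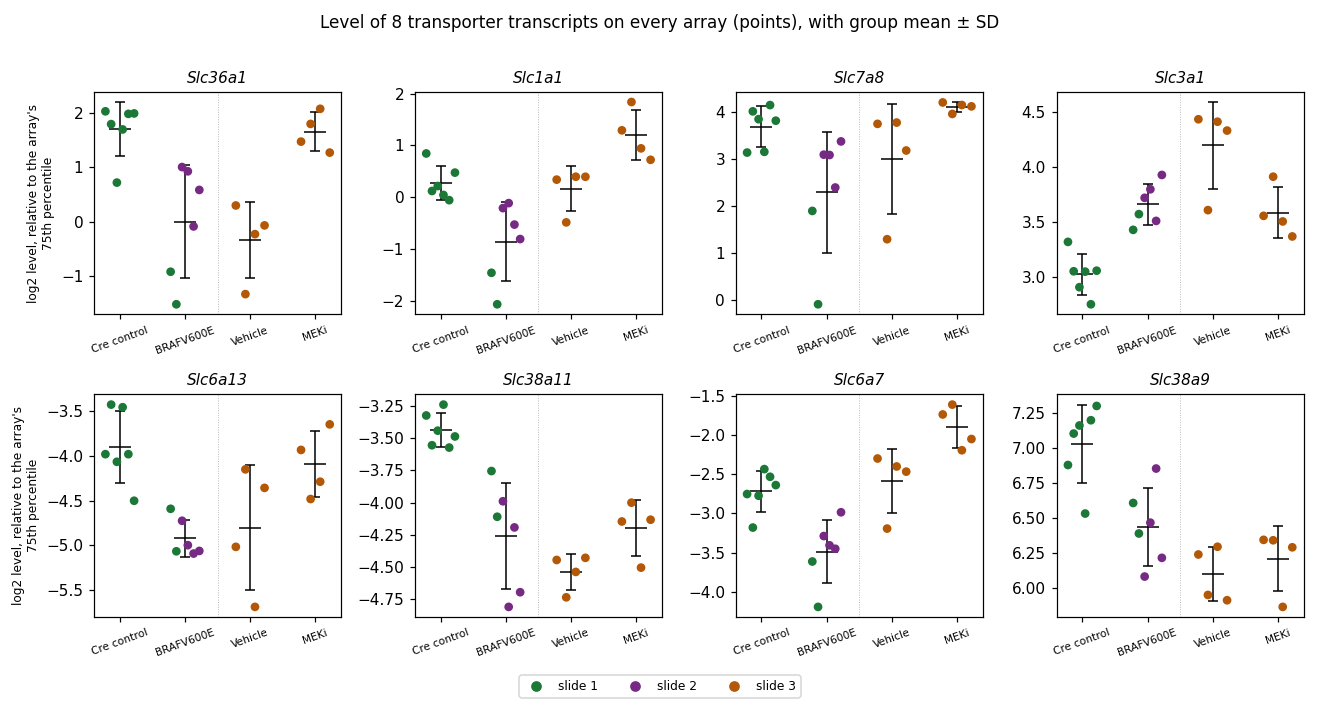
Log2 level relative to the 75th percentile of the array (y axis) on each array (points, coloured by slide) for 8 transporters, with the group mean ± SD in black. The panels of Slc36a1 and Slc1a1 show the 2 BRAFV600E arrays of slide 1 below the 4 of slide 2, and all 4 MEKi arrays above the 4 Vehicle arrays.

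Slc36a2, a carrier of proline and glycine, had a log2 fold change of 0.12 (adjusted p = 0.62) at its brightest probe and of -0.91 and -1.40 at its other 2 passing probes, so its direction is uncertain. Slc36a3 and Slc36a4 were too dim to be tested in this comparison.

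Among the acidic amino acid transporters, Slc1a1, the glutamate, aspartate and cysteine carrier of the brush border, fell. Its log2 level ran from -0.05 over 0.17 to 0.85 on the Cre control arrays and from -2.06 over -0.66 to -0.11 on the BRAFV600E arrays, with no overlap. It fell by 1.14 on the log2 scale in BRAFV600E tissue (SE 0.31, adjusted p = 0.035), and its second probe differed by -0.97. As with Slc36a1, BRAFV600E replicates 1 and 2 were the lowest arrays, at -1.45 and -2.06, and the difference was -2.03 with slide as a block (adjusted p = 0.0015) and -0.69 without those 2 arrays (adjusted p = 0.071). The glial and neuronal relatives Slc1a3, Slc1a6 and Slc1a7 had log2 fold changes between -0.53 (Slc1a7, adjusted p = 0.10) and -0.22 (Slc1a3, with a second probe at 0.036), and Slc1a2 was not tested. The neutral exchangers of the same family moved by less than their SE: Slc1a5, the glutamine carrier, by 0.07 and Slc1a4, the serine and alanine carrier, by -0.08.

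Of the 2 heavy subunits 1 was called, beside 12.5% of all genes. Slc3a1, which pairs with Slc7a9 to take up cystine and dibasic amino acids at the brush border, was the member that rose. Its log2 level ran from 2.75 over 3.05 to 3.32 on the Cre control arrays and from 3.43 over 3.64 to 3.93 on the BRAFV600E arrays, so every BRAFV600E array was above every control. The rise was 0.64 on the log2 scale (SE 0.13, adjusted p = 0.0099). On slide 1 alone the 2 BRAFV600E arrays were at 3.43 and 3.57, and with slide as a block the difference of Slc3a1 was 0.48 (adjusted p = 0.11). Slc3a2, the heavy subunit of the basolateral exchangers and of several other pairs, differed by -0.51 (SE 0.25, adjusted p = 0.18). On slide 1 its 2 BRAFV600E arrays lay at 3.78 and 3.49, below all 6 controls (4.58 to 5.06), and on slide 2 at 4.35 to 5.00, within or near the control range.

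The light subunit group as set here does not hold Slc7a15. Of its 6 members tested limma called 0 and 1 had an unadjusted p under 0.05, with log2 fold changes between -1.39 and 0.29. The lowest was that of Slc7a8, which exports neutral amino acids across the basolateral membrane together with Slc3a2. Its log2 level ran from 3.14 over 3.83 to 4.15 on the Cre control arrays and from -0.09 over 2.74 to 3.37 on the BRAFV600E arrays. The difference was -1.39 (SE 0.50, adjusted p = 0.084), and a dimmer second probe differed by -2.13. Slc7a9, the partner of Slc3a1, differed by 0.24 (adjusted p = 0.32), with a second probe at 0.83. Slc7a7, the exchanger that exports dibasic amino acids, differed by 0.04 (adjusted p = 0.92), and by -0.51 with slide as a block (adjusted p = 0.16). Slc7a5, which imports large neutral amino acids into dividing cells, differed by 0.27, less than its SE of 0.40, and Slc7a6 and Slc7a10 were the other 2 tested. Slc7a11, the cystine importer, and Slc7a12 and Slc7a13 were too dim to be tested.

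Slide 1 held both groups, and there the transporters that fell were partly others. With slide as a block, 7 of 48 members were lower and none was higher, beside 8.05% of all genes (2.43% higher and 5.62% lower), and 3 of the 7, Slc36a1, Slc1a1 and Slc6a7, were among those called without the block. The other 4 were Slc7a8 (-2.78, adjusted p = 0.0047), Slc43a2 (-1.79, adjusted p = 0.0022), Slc7a15 (-1.66, adjusted p = 0.0041) and Slc3a2 (-1.23, adjusted p = 0.0046), which are named because the block called them. Slc7a8, Slc3a2 and Slc43a2 all serve the basolateral exit of neutral amino acids, and Slc7a15 is a carrier of aromatic amino acids known from mouse gut and kidney. These values rest on BRAFV600E replicates 1 and 2. Without these 2 arrays, a comparison in which slide and group cannot be told apart, the same 4 differences were -0.70, -0.16, -0.13 and -0.15, none past the threshold, and 3 members were called: Slc38a11 and Slc6a13 lower and Slc3a1 higher.

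**Figure D3:**
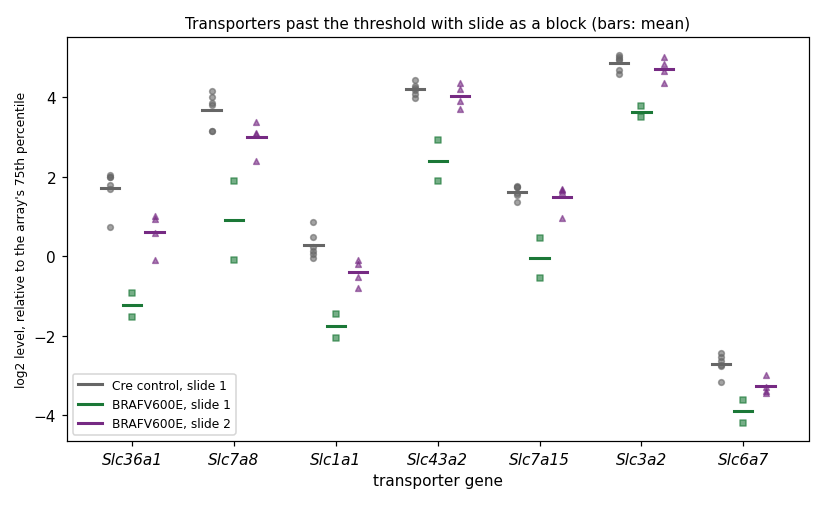
Log2 level relative to the 75th percentile of the array (y axis) of the 7 transporters past the threshold with slide as a block (x axis), for the 6 Cre control arrays of slide 1, the 2 BRAFV600E arrays of slide 1 and the 4 BRAFV600E arrays of slide 2. Points are arrays and bars are means. For Slc43a2 the 3 means are 4.20, 2.40 and 4.04.

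Markers of cell types moved along with these falls. Enterocyte markers had a mean log2 level of 6.57 to 7.22 on the Cre control arrays and 5.00 to 6.89 on the BRAFV600E arrays. There replicates 1 and 2 were the lowest, at 6.17 and 5.00. Of 11 tested, 10 were below 0 (48.4% of all genes were above 0), with a median log2 fold change of -0.44. An unadjusted p under 0.05 was found for 7 (beside 30.1% of all genes). Limma called Alpi, the 1 above 0, higher and Mgam lower. Epithelial markers as a whole had the same mean level in both groups, 6.08, though replicates 1 and 2 were again low at 5.87 and 5.61, and limma called 0 of the 6, with 1 at an unadjusted p under 0.05. Paneth cell markers fell in 4 of 5 genes tested, with a mean level of 3.86 to 6.17 against 6.60 to 7.13, again lowest on replicates 2 and 1 (3.86 and 4.34). T lymphoid markers fell in 3 of 5, goblet markers in 3 of 7 with 1 higher, markers of enteric neurons and glia in 2 of 6, and smooth muscle markers rose in 2 of 6. Markers of the proximal small intestine did not overlap in mean level (2.53 to 3.00 on the BRAFV600E arrays against 3.11 to 3.30). They did not fall as a class: 4 of 6 were above 0, with a median log2 fold change of 0.52, and 2 were called higher and 1 lower. Tuft cell markers fell in 2 of 6 and enteroendocrine markers in 2 of 8 with 1 higher. These counts stand beside 6.19% of all genes tested called higher and 6.27% called lower. The part of these shifts in the transporter values was not tested.

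Of the 5 cationic amino acid transporters and relatives tested, limma called 0, with 0 at an unadjusted p under 0.05. Slc7a1, which supplies arginine and lysine to most cells, differed by -0.01 (SE 0.15, adjusted p = 0.97), with the Cre control arrays at 2.61 to 3.16 and the BRAFV600E arrays at 2.63 to 3.33. Slc7a3, Slc7a4, Slc7a14 and Slc7a15 ran from -0.64 (Slc7a15, adjusted p = 0.23) to 0.20, and Slc7a2 was not tested. Slc7a15 was placed in this group as a relative, though it carries aromatic amino acids.

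The carriers that dominate sodium-coupled uptake of neutral amino acids at the brush border were not called either (0 of 3 by limma, 1 at an unadjusted p under 0.05). Slc6a19, the main carrier of neutral amino acids in small intestine, ran from 2.67 over 3.12 to 3.63 on the Cre control arrays and from 2.16 over 3.60 to 3.79 on the BRAFV600E arrays, a difference of 0.15 (SE 0.28, adjusted p = 0.76), which was -0.57 with slide as a block (adjusted p = 0.22). The proline carriers Slc6a20a and Slc6a20b, near-identical paralogs whose probes may share signal, differed by -0.08 and -1.21 (adjusted p = 0.91 and 0.13). Slc6a14, Slc6a15 and Slc6a18 were too dim to be tested.

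The carriers of transmitters, osmolytes and creatine gave 2 of 11 calls, both lower (beside 6.27% of all genes) and both in dim transcripts. Slc6a13, a carrier of GABA and taurine, ran from -4.50 over -3.98 to -3.42 on the Cre control arrays and from -5.09 over -5.03 to -4.59 on the BRAFV600E arrays, where 3 of 6 spots were well above background. It fell by 1.02 on the log2 scale (SE 0.19, adjusted p = 0.0057), with no overlap, and the call was lost with slide as a block (-0.93, adjusted p = 0.058). Slc6a7, the proline carrier known from brain, ran from -3.18 over -2.70 to -2.44 and from -4.19 over -3.43 to -2.99 in the same order of groups. It fell by 0.77 (SE 0.19, adjusted p = 0.025) and by 1.18 with slide as a block (adjusted p = 0.010), but differed by 0.040 when the arrays were not scaled.

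The brighter members of that group were not called. Slc6a8 (creatine), Slc6a6 (taurine), Slc6a9 (glycine) and Slc6a4 (serotonin) had log2 fold changes of 0.13, 0.21, -0.02 and -0.22, with adjusted p between 0.42 and 0.96. Other probes differed for Slc6a8, where a second probe was at 1.17, and for Slc6a6, where 2 more were at 1.09 and -0.69. With slide as a block Slc6a8 was at -0.53 (adjusted p = 0.18). Slc6a3, Slc6a12, Slc6a16 and Slc6a17 were tested without a call, the lowest being Slc6a17 at -0.83, and Slc6a2, Slc6a5 and Slc6a11 were not tested. Slc6a21, a relative with no role assigned here, differed by -0.12.

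Among the sodium-coupled Slc38 carriers 2 of 9 fell, beside 6.27% of all genes. Slc38a11, a little-studied member, ran from -3.57 over -3.46 to -3.24 on the Cre control arrays and from -4.81 over -4.15 to -3.75 on the BRAFV600E arrays, with no overlap. It fell by 0.82 (SE 0.18, adjusted p = 0.013), and the call was lost with slide as a block (-0.50, adjusted p = 0.19). Slc38a9, the lysosomal arginine sensor, ran from 6.53 over 7.13 to 7.30 and from 6.08 over 6.43 to 6.85, and fell by 0.59 (SE 0.17, adjusted p = 0.038), but differed by 0.21 without scaling of the arrays and was not called with slide as a block (-0.53, adjusted p = 0.19).

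The call for Slc38a9 rests on 1 of its 2 probes. The other probe, which is named through a RefSeq accession while the brighter one is named by its symbol, differed by 0.72 in the opposite direction, and with the mean of both probes the difference was 0.065. The first 30 of 60 bases of each are shown, as they lie 26745 bases apart and moved in opposite directions.
Slc38a9, brighter probe (chr13:113495110-113495169): tctctgtgagttccaggacagccaaagcta
Slc38a9, other probe (chr13:113521855-113521914): gctcagtttttcatgtgaaaactctcttct
The brighter probe had mean levels of 6.43 in BRAFV600E and 7.03 in Cre control tissue, against -0.87 and -1.59 at the other. Whether the brighter probe reads this gene alone was not tested. The direction of Slc38a9 is therefore uncertain, and so is its place among the 6 that fell.

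Slc38a2, the carrier that cells raise when amino acids run short, differed by 0.89 (SE 0.41, adjusted p = 0.16), with a wide spread among the controls (-0.62 to 1.47) and a second probe at -0.38. Slc38a1, Slc38a10 and Slc38a6 differed by 0.10, -0.03 and -0.31 (their other probes by -0.17 to 0.82, by -1.20 and -0.66, and by -0.58 to 0.033), Slc38a3, Slc38a7 and Slc38a8 by -0.18 to 0.14, and Slc38a4 and Slc38a5 were too dim. In the Slc43 family, Slc43a2, the basolateral exporter of large neutral amino acids, differed by -0.70 (adjusted p = 0.20), Slc43a3 by -0.47 (adjusted p = 0.26) and Slc43a1 by 0.61 (adjusted p = 0.11), with a second probe at -0.08. Of the opposite-strand genes, Slc7a6os rose by 0.77 (SE 0.17, adjusted p = 0.014) while Slc7a6 itself, a light subunit, differed by 0.29 (adjusted p = 0.39).

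Scaling changed the sign of 25 of the 48 differences. Without scaling between arrays the median of all genes was shifted by 0.79 on the log2 scale, 17 members were called and each of them was higher. Slc36a1 (-0.90), Slc1a1 (-0.33) and Slc6a13 (-0.21) were still below 0 and none of these was called, while Slc38a11 was at -0.014. Slc43a2, Slc3a2 and Slc7a15, which were below 0 with scaling, were at 0.10, 0.30 and 0.17 without it. Slc3a1 was called higher under both settings.

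**Figure D4:**
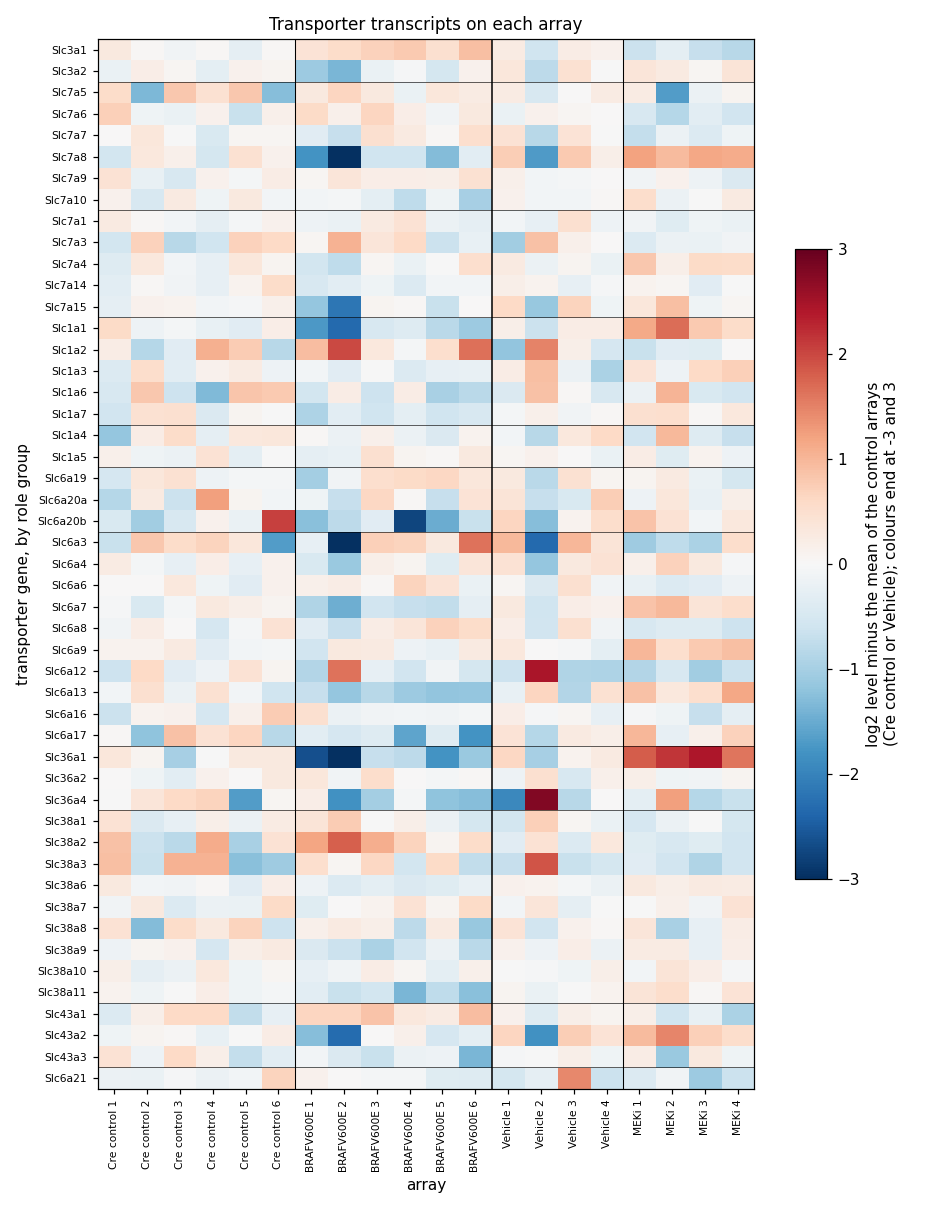
Log2 level of the transporters tested, with 1 left out (rows, by role group) on each of the 20 arrays (columns), minus the mean of the control arrays of its experiment (Cre control or Vehicle), with red above and blue below it and colours ending at -3 and 3. Rows of Slc36a1, Slc1a1, Slc7a8 and Slc43a2 are bluest on BRAFV600E replicates 1 and 2, and the column of Vehicle replicate 2 differs from the other Vehicle columns.

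The second comparison asked which transcripts depend on MEK, the kinase below BRAF, in tissue with the induced allele. Slc36a1 rose in MEKi tissue and was the 1 member called of 50 tested (2%, beside 1.98% of 19231 genes, and beside 1.09% called higher). By limma 0 members were called lower, beside 0.884% of all genes. A log2 fold change above 0 was found for 23 members (46%, beside 54.6%). The median log2 fold change was -0.05 over the members and 0.04 over all genes. At an unadjusted p under 0.05 stood 9 of 50 members (18%, beside 16.4% of all genes). Levels did not overlap between the groups in 7 members, 6 of them higher (12%, beside 6.44% of all genes) and 1 lower (2%, beside 5.76%).

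The log2 level of Slc36a1 was 1.48, 1.80, 2.08 and 1.27 on the MEKi arrays and 0.30, -1.34, -0.23 and -0.07 on the Vehicle arrays, with no overlap. The rise was 1.99 on the log2 scale (SE 0.35, adjusted p = 0.034), or 3.98-fold. It was 1.66 without Vehicle replicate 2 (adjusted p = 0.022), the array with pancreatic transcripts, and its second probe differed by 0.39. The call was lost without any 1 of 6 other arrays (the 4 MEKi arrays and Vehicle replicates 3 and 4), with estimates from 1.85 to 2.12, and with the level of Y-linked transcripts as a covariate (1.62, adjusted p = 0.16).

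Slc1a1 moved the same way without passing the threshold. Its level was 1.29, 1.84, 0.94 and 0.72 on the MEKi arrays and 0.34, -0.48, 0.40 and 0.40 on the Vehicle arrays, so that the groups did not overlap. The difference was 1.04 (SE 0.29, adjusted p = 0.13), with 1.03 at the second probe and 0.82 without Vehicle replicate 2. Slc3a1 lay at 3.55, 3.91, 3.50 and 3.37 on the MEKi arrays and at 4.43, 3.61, 4.41 and 4.33 on the Vehicle arrays. Its difference was -0.61 (SE 0.22, adjusted p = 0.21), and -0.81 without Vehicle replicate 2 (adjusted p = 0.055).

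The remaining members called in the first comparison, Slc6a13, Slc38a11, Slc6a7 and Slc38a9, had differences of 0.72, 0.34, 0.69 and 0.11 here, with adjusted p between 0.19 and 0.81. Slc6a7 lay at -1.74, -1.62, -2.20 and -2.05 on the MEKi arrays and at -2.30, -3.19, -2.40 and -2.47 on the Vehicle arrays, without overlap. Slc6a13 lay at -3.93, -4.48, -4.29 and -3.65 against -5.02, -4.15, -5.69 and -4.36. Slc38a11 ran from -4.51 to -4.00 against -4.74 to -4.43, and Slc38a9 from 5.86 to 6.34 against 5.91 to 6.29. All 7 members called in the first comparison thus had the opposite sign in the second, as did 35 of the 48 tested in both, beside 91.4% of all called genes and 70.2% of all genes tested in both. The experiments share no arrays.

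Slc7a8 and Slc43a2 show how far 1 array can carry a value. Slc7a8 lay at 4.20, 3.96, 4.15 and 4.12 on the MEKi arrays and at 3.75, 1.29, 3.77 and 3.18 on the Vehicle arrays. Its difference of 1.11 (SE 0.51, adjusted p = 0.33) was 0.54 without Vehicle replicate 2 (adjusted p = 0.19). Slc43a2 differed by 0.91 (adjusted p = 0.49), and by 0.31 without that array, where its level was 1.83 against 4.05 to 4.39 on the other 3. Slc3a2 differed by 0.27 and Slc7a15 by 0.29, and without that array by 0.01 and -0.08.

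Slc6a9, the glycine carrier, came nearest to a call among the other members. It lay at 3.22, 2.73, 3.01 and 3.15 on the MEKi arrays and at 2.54, 2.26, 2.20 and 1.94 on the Vehicle arrays, without overlap. The difference was 0.79 (SE 0.17, adjusted p = 0.062), against -0.02 in the first comparison. Slc6a9 was called higher with normexp background correction, quantile normalization, probes well above background on every array, an intensity trend and array weights. It was also called without MEKi replicate 2, where Slc36a1 was not. Slc7a6 was the member whose arrays were all lower, at -2.07, -2.44, -1.90 and -2.17 against -1.79, -1.46, -1.53 and -1.58, a difference of -0.56 (SE 0.15, adjusted p = 0.12).

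In the second comparison as fitted without alternatives, Slc36a1 was the only member called. Without Vehicle replicate 2, 10 of the 50 differences changed sign. The light subunits Slc7a5, Slc7a7 and Slc7a9 differed by -0.38, -0.36 and -0.14, and Slc7a10 by 0.16. Slc7a1, Slc7a3, Slc7a4 and Slc7a14 ran from -0.23 (Slc7a3, 0.065 without Vehicle replicate 2) to 0.52 (Slc7a4, adjusted p = 0.19). The brush border carriers Slc6a19, Slc6a20a and Slc6a20b differed by -0.09, 0.04 and 0.38 (-0.36, -0.19 and -0.049 without that array), and Slc1a4 and Slc1a5 by -0.17 and -0.05. Slc1a3, Slc1a7, Slc1a6 and Slc1a2 ran from -0.34 (Slc1a2, 0.16 without that array) to 0.40 (Slc1a3).

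Slc6a8, Slc6a6 and Slc6a4 differed by -0.47, -0.29 and 0.27, none past the threshold, and Slc6a4 by -0.11 without Vehicle replicate 2. The Slc38 members not called in either comparison ran from -0.60 (Slc38a3) to 0.24 (Slc38a6), but without that array Slc38a3 was at 0.028 and Slc38a1 went from -0.31 to -0.071. Other probes of opposite sign were at -0.84 for Slc38a6 and 1.37 for Slc38a8. Slc43a1 and Slc43a3 differed by -0.40 and -0.18, and Slc36a2 and Slc36a4 by 0.00 and -0.14. Slc36a4 was at 0.78 without Vehicle replicate 2, and the other probes of Slc36a2 were at 1.61 and 0.16. The lowest of all 50 was Slc6a12 at -0.76, whose level on Vehicle replicate 2 was -0.28 against -3.65 to -3.35 on the other Vehicle arrays, and without that array it was at 0.055. Slc6a21 differed by -0.57, with 1 of 4 Vehicle arrays at -1.55.

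Marker lists also differed between MEKi and Vehicle, with few calls. Distal small intestine markers had a mean log2 level of -0.87 to -0.07 on the MEKi arrays and -0.32 to 1.67 on the Vehicle arrays, where replicate 2 was the lowest and the other 3 ran from 0.73 to 1.67. Of these 5 genes limma called 0, and 1 had an unadjusted p under 0.05. Proximal small intestine markers ran from 3.00 to 3.55 on the MEKi arrays against 2.87 to 4.90 on the Vehicle arrays. Of these 6 genes limma called 1, higher (beside 1.09% of all genes). Goblet markers ran from 6.19 to 6.85 against 5.63 to 6.26, with 0 of 7 called and 3 at an unadjusted p under 0.05. Enterocyte markers ran from 6.41 to 7.03 against 5.94 to 6.92, Paneth markers from 6.77 to 7.57 against 5.21 to 6.91, and T lymphoid markers from 0.11 to 1.04 against -0.71 to 0.10. The T lymphoid means thus did not overlap, and all 5 genes were above 0. Limma called 0 in each of these lists. At an unadjusted p under 0.05 stood 1 of 11 enterocyte, 1 of 5 Paneth and 4 of 5 T lymphoid genes (beside 16.4% of all genes). The part of intestinal region, cell makeup and sex in the transporter values was not tested beyond the fits named here.

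The genes that surround these carriers were taken as 3 lists. The partners of uptake outside the families (among them the peptide carrier Slc15a1, the aromatic amino acid carrier Slc16a10, the peptidase Dpp4 and the brush border scaffold Pdzk1) had a median log2 fold change of -0.68 in BRAFV600E tissue, with 7 of 8 below 0 and 1 called. Over all genes tested there, 48.4% were above 0 and 6.27% were called lower. The list shares members with the enterocyte markers. The 1 called was Pdzk1, named after its values were seen. Pdzk1 stood at 2.94 ± 1.66 (SD, n = 6) against 5.41 ± 0.23 (SD, n = 6) and fell by 2.46 on the log2 scale (SE 0.61, adjusted p = 0.023 by limma). In MEKi tissue the median was 0.69, with 7 of 8 above 0 (beside 54.6% of all genes). There limma called 0, and 2 had an unadjusted p under 0.05 (beside 16.4% of all genes). By array the mean log2 level of the 8 was lowest on BRAFV600E replicates 1 and 2 (2.12 and 1.20) and on Vehicle replicate 2 (1.85), and between 3.07 and 4.07 on the others.

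Of 18 enzymes of amino acid metabolism, 2 rose and 2 fell in BRAFV600E tissue, beside 6.19% of all genes called higher and 6.27% lower. In MEKi tissue 1 of the 18 rose, beside 1.09% of all genes called higher. Oat, ornithine aminotransferase, which links ornithine with glutamate and proline, was called in both, in opposite directions. On the log2 scale Oat stood at 5.81 ± 0.21 (SD, n = 6) in the Cre control group and at 3.65 ± 0.74 (SD, n = 6) with the mutant allele, and it fell by 2.16 (SE 0.29, adjusted p = 0.00091 by limma). In the second experiment it was 6.24 ± 0.08 (SD, n = 4) in MEKi and 4.35 ± 0.74 (SD, n = 4) in Vehicle tissue, a rise of 1.89 (SE 0.33, adjusted p = 0.034 by limma). The other 3, named after their values were seen, were Prodh, proline dehydrogenase, which fell by 1.38, and the glutaminase Gls2 and the aspartate aminotransferase Got2, which rose by 2.06 and 0.59. Of 19 amino acid sensing genes tested, 1 rose and 1 fell in BRAFV600E tissue, beside 6.19% of all genes called higher and 6.27% lower. Named after their values were seen, these were Mtor, which rose by 1.07, and Sesn1, a sestrin that restrains mTORC1, which fell by 0.84. In MEKi tissue limma called 0 of the 19, and 2 had an unadjusted p under 0.05.

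The spread between mice limits which differences could be seen. The SD of the 48 members had a median of 0.34 on the log2 scale over the Cre control arrays and 0.43 over the BRAFV600E arrays, in the latter from 0.11 in Slc38a6 to 1.74 in Slc6a3. Among the 50 members of the second comparison it was 0.27 for MEKi and 0.44 for Vehicle. At the edge of the filter, Slc38a3 and Slc6a13 passed with 9 of 12 arrays well above background and Slc1a2 and Slc6a2 failed with 5. In the second comparison Slc36a4 passed with 4 of 8, and Slc38a5 and Slc6a2 failed with 3.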

How the data were processed

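RNA from intestinal tissue was labelled with Cy3 and hybridised to 1-colour Agilent SurePrint G3 Mouse arrays. Per the file headers, the authors extracted spots with Agilent Feature Extraction (version 10.5.1.1 per the labels), which subtracted background, and deposited a processed intensity on a linear scale for each spot that was not normalized between arrays. The deposited value table repeats this intensity (on each array 100% of spots differed from the scanner file by under 0.5%). Groups were taken from the labels' source names. The labels' treatment text, which names a statin and is the same for all arrays, was not used. Replicate numbers only name arrays, and 1 array is 1 mouse.

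Control spots and outlier spots were left out. Levels are log2 of the deposited intensity minus the 75th percentile of the array. Of 56605 probes, a RefSeq table (GRCm38.p6, used for names and promoters) named 34023 through their accession, 9993 through their symbol and 318 through a synonym, and left 12271 unnamed. Where a gene had several probes, the brightest on average across the 20 arrays was used. Each comparison was fitted by lmFit and eBayes of limma 3.58.1 in R 4.3.3, with no covariates and two-sided p-values, and a call means an adjusted p (Benjamini-Hochberg) under 0.05. Every adjusted p in the text is limma's. On simulated data, 61% and 58% of genes changed by 1 on the log2 scale were recovered in the first and second comparison. Precision is limited by how many arrays there are.

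The members, role groups, lists and motifs were chosen with earlier results of these data known. Every member was named except 1 that, like 1 gene of the lists, is not reported here by name, members called in either comparison were given by array, and up to 4 uncalled members per role group, those with the highest mean level, were given by value. The alternatives were the background correction, normalization, filter, probe choice, variance model, array weights, Y-linked covariate, slide, spike-in range and leaving out each array. 1 more was added after seeing the data.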

Additional observations from a re-analysis of the deposited data

Results flagged for a closer look

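Of 168 groups of 4 or 6 arrays looked at (the members given by value, the 3 gene lists and the pancreas markers), 9 had 1 array far from the rest, where chance gives about 1 in 20. Of these, 6 were on Vehicle replicate 2. The pancreas markers had a mean log2 level of 6.78 there, above the other Vehicle arrays. Slc1a1 (-0.48), Slc3a1 (3.61), Slc43a1 (-3.49), Slc43a2 (1.83) and Slc6a4 (0.96) were each below the other 3 Vehicle arrays.

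The other 3 were Slc36a1 on Cre control replicate 3 (0.72, the lowest of 6), Slc6a21 on Cre control replicate 6 (-2.46, the highest of 6) and Slc38a9 on MEKi replicate 3 (5.86, the lowest of 4). Without Cre control replicate 3, Slc36a1 was still called. No explanation of these values was tested.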

How the results depend on the processing

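The count of members called for BRAFV600E against Cre control was 7. It was 17 without scaling between arrays (all higher, beside a median of all genes of 0.79). With only the arrays whose spike-in slope was in range it was 1 (Slc36a1). Those arrays were Cre control replicates 1, 4 and 6 and BRAFV600E replicates 1 and 2, all on slide 1. The count was 3 without the BRAFV600E arrays of slide 1, an alternative added after seeing the data. Leaving out 1 array gave 5 to 7, and the other alternatives gave 5 to 10. The count of 1 for MEKi against Vehicle was 2 with normexp background correction, with quantile normalization, with probes well above background on every array and with an intensity trend, 3 with array weights, and 0 without scaling, without the filter, with the mean over probes and with the Y-linked covariate. Where 2 or 3 were called, they included Slc36a1 and Slc6a9, both higher. With array weights Slc3a1 was also called, lower (adjusted p = 0.024). Leaving out 1 array gave 0 to 1, and without MEKi replicate 2 the 1 called was Slc6a9.

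Of the 7 members called in the first comparison, 2 reversed there: Slc38a9 to 0.21 without scaling and 0.065 with the mean over probes, and Slc6a7 to 0.040 without scaling. In the second, Slc38a9 became -0.34 with the mean over probes and -0.061 with the Y-linked covariate. Over all 48 members, 25 changed sign without scaling, 10 with slide as a block and 9 without the BRAFV600E arrays of slide 1. Of the 50 in the second comparison, 10 changed sign without Vehicle replicate 2 and 1 without scaling. The cause was not tested. Slc36a1 was called in 23 of 25 alternatives of the first comparison and in 7 of 17 of the second, without a change of sign. Slc1a1 was called in 12 of 25. No paired analysis was possible because the labels give no replicate numbers that groups share. Dim probes are the limit of the rest: 13 members were tested in neither comparison.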

Other observations

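Slc38a5, a glutamine and serine carrier that was too dim to be tested, had a log2 level of 1.39 on Vehicle replicate 2 and -7.11 to -6.85 on the other 3 Vehicle arrays. On the same array Slc36a4 was at -2.23, against -6.95 to -5.00, and Slc38a3 at -1.44, against -4.01 to -3.84. On the 12 arrays of the first experiment Slc38a5 ran from -7.76 to -4.27.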
